A study of Mus musculus with 26 samples.

Results

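Arrays of 5 Rb/p53-mutated pineoblastomas (PBs) were set against arrays of 11 Rb/p53-deleted PBs, to describe which genes separate tumors that carry a mutant p53 from tumors that have lost it. The 16 tumors, out of 26 samples in the series, were taken by their sample labels from the table of Affymetrix Mouse Gene 1.0 ST arrays, which also holds 3 normal cerebellum samples. All tumors arose in mice of mixed genetic background in which a WAP-Cre transgene deleted both floxed Rb alleles. Rb/p53-deleted mice carried WAP-Cre and Rb flox/flox together with p53 flox/flox. Rb/p53-mutated mice carried the same transgene and Rb alleles with the p53 genotype lsl_R270H/flox, so that Cre removed the floxed p53 copy and switched on, by excising a stop cassette, a copy with a changed DNA-binding domain. The WAP promoter is known for its activity in the lactating mammary gland, and the Cre lines were found to act in the pineal gland as well. The ages of the mice whose tumors were arrayed are not stated in the sources used here. RNA was extracted from pieces of snap-frozen tumor, so every value is an average over tumor cells and whatever other cells the piece held. Fewer cells of a type and less RNA per cell cannot be told apart in such data.

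Rb holds E2F transcription factors in check until a cell commits to divide, and p53 halts division or kills the cell after DNA damage, largely by switching on genes such as those for cell cycle inhibitors and death factors. Missense changes in the DNA-binding domain of p53 abolish much of that switching and let the altered protein accumulate, and new activities have been ascribed to such proteins in human cancer cells. Pinealocytes are neuroendocrine cells that make melatonin and share much of their gene program with retinal photoreceptors. Neither group of tumors had an intact Rb and p53 pathway, so the comparison is between a mutant p53 protein and none.

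Genotype and array set could not be told apart. The deposited values of the 5 Rb/p53-mutated arrays had medians of 7.04 to 7.12 on the log2 scale, those of Rb/p53-deleted PB1 to PB10 had medians of 7.90 to 7.97, and Rb/p53-deleted PB11 was spread like the cerebellum arrays, with an interquartile range of 3.24 against 2.57 to 2.87 in PB1 to PB10. The 19 arrays were therefore brought to a common distribution by quantile normalization, and each value below is such a log2 value unless another scale is named. A difference is the Rb/p53-mutated mean minus the Rb/p53-deleted mean, with its standard error (SE), and a gene was called where the adjusted p of limma over all 19938 named genes was under 0.05. Any difference may belong to the p53 allele, to the array set or to both.

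The labels fitted the tissue as far as it could be checked. The mean over 19 pineal and melatonin genes was 9.41 to 9.84 in Rb/p53-mutated PBs and 9.69 to 9.90 in Rb/p53-deleted PBs, against 7.66 in cerebellum, while 16 granule neuron markers averaged 8.63 to 9.42 in the tumors against 11.57 in cerebellum. Trp53 was not analysed here, so the p53 allele itself was not checked. Rb1 stood at 10.26, 9.99, 10.31, 10.41 and 9.90 in Rb/p53-mutated PB1 to PB5, at 9.64 to 10.61 in Rb/p53-deleted PBs and at 10.03 on average in cerebellum. Its value pools probes along the whole gene and does not check the deletion. Eif2s3y, a Y-linked gene, was low (3.28 to 4.62) and Xist high (12.65 to 13.47) in 3 of 5 Rb/p53-mutated and 6 of 11 Rb/p53-deleted PBs. In the other tumors Eif2s3y was at 6.45 to 8.96 (mutated) and 6.80 to 10.07 (deleted), and Xist at 6.51 to 10.04 and 7.24 to 10.03. Some of these carried both signals, such as mutated PB5 (6.45 and 10.04) and deleted PB9 (10.07 and 9.74). The reason was not tested.

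Rb/p53-mutated PBs had higher values for 4120 of the 19938 genes (20.7%) and lower values for 5154 (25.9%), so that 46.5% of all genes were called. The median gene differed by -0.04. On the deposited values, before normalization, it differed by -0.86, and 147 genes were called higher and 18392 lower, so directions below are relative to the other genes of each array. Differences of 1 or more on the log2 scale were found for 215 genes upward (1.08%) and 145 downward (0.727%). For 1452 of the higher genes (7.28% of all) and 1667 of the lower genes (8.36%) the groups did not overlap. Of the 9274 called genes, 7398 (79.8%) were called in the same direction on median-centred values and on ranks within each array. On their own, median-centred values gave 4464 genes upward (22.4%) and 3843 downward (19.3%), and ranks 3948 (19.8%) and 5078 (25.5%). Rb/p53-deleted PB11 was the only Rb/p53-deleted tumor outside the set of PB1 to PB10. With the array set (mutated, PB1 to PB10, PB11) as a random block, 1098 genes (5.51%) were higher and 1018 (5.11%) lower. These 2116 genes were 22.8% of those called without the block. The sets were read from the array values, and among deleted tumors the spread between sets rests on PB11 alone. All 5 mutated arrays lie in the same set, so a call with this block does not separate genotype from array set either. The count left with this block is given with the main gene groups below, and the shares of 20.7% higher and 25.9% lower are the background for each list.

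The leading genes were the 12 with the largest difference in each direction among genes outside large families that were called on all 3 scales with no overlap and whose higher group mean lay above the median level of all genes (8.05). Col10a1, a collagen of growth plate cartilage, was at 11.37, 8.92, 9.50, 8.72 and 8.57 in Rb/p53-mutated PB1 to PB5 and at 7.16 to 8.29 (median 7.49) in Rb/p53-deleted PBs. All 5 mutated tumors lay above all 11 deleted tumors, and PB1 stood far above the other 4 (difference 1.85, SE 0.33, adjusted p = 0.00024 by limma). Mfap5, a glycoprotein of elastic microfibrils, had the same leading tumor, with 9.36, 7.51, 8.23, 7.86 and 8.58 against 6.40 to 7.08 (median 6.77), a difference of 1.55. Fxyd5, a modulator of the sodium pump that weakens cell contacts, was at 11.52, 11.18, 11.10, 11.39 and 11.84 against 9.06 to 10.32 (median 9.89). Its 5 mutated tumors were close together and its difference was 1.60 (SE 0.19, adjusted p = 4.6e-06 by limma). Mustn1, named for its place in the developing musculoskeletal system, was at 10.60, 9.14, 9.70, 9.61 and 10.83 against 7.97 to 9.03, with PB11 the highest deleted tumor. Sorbs2, an adaptor of the actin cytoskeleton, was higher by 1.51, and Scgb3a1, a small secreted protein, by 1.55. Pcdhb6, a protocadherin of neuronal contacts, was higher by 1.46, with PB2 at 10.44 and the other mutated tumors at 8.44 to 8.90.

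Of the 12 leading genes upward, 3 are known from myeloid cells. Spi1 encodes PU.1, the transcription factor that sets the macrophage fate, and was at 9.37, 9.01, 8.98, 9.38 and 9.92 against 7.42 to 8.10 (median 7.82), a difference of 1.51 (SE 0.14, adjusted p = 3e-07 by limma). Clec4a1, a lectin receptor of myeloid cells, was at 7.73, 8.60, 7.67, 7.73 and 8.60 against 5.93 to 6.82 (median 6.44), a difference of 1.66. The chemokine Ccl3 was at 9.98, 9.41, 9.07, 9.44 and 10.16 against 7.82 to 8.59 (median 8.23), a difference of 1.43. In each of these genes PB5 was the highest or level with the highest mutated tumor, and the groups were apart, which was a condition for leading genes. The other leading genes were Rpp25, a subunit of the enzymes that trim transfer and ribosomal RNA precursors (1.44), and the long noncoding RNA Dancr (1.52), for which PB11 was the highest deleted tumor at 9.09.

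Downward, the list was led by DQ267102, annotated as a small nucleolar RNA inside the imprinted noncoding gene Rian, which was at 9.80, 9.95, 8.95, 8.86 and 8.72 in Rb/p53-mutated PBs and at 10.11 to 13.13 (median 11.55) in Rb/p53-deleted PBs. The difference of -2.35 (SE 0.39, adjusted p = 0.00013 by limma) came with a spread of 3 log2 units among the deleted tumors. Large families were set by gene symbol, so this gene was kept although snoRNA genes such as Snora33 (-2.31) were not considered. Cdkn1c, the imprinted cell cycle inhibitor p57, was at 8.93, 8.36, 9.11, 9.23 and 8.69 against 9.56 to 11.02 (median 10.49), with PB11 the lowest deleted tumor (difference -1.59, SE 0.20, adjusted p = 9.6e-06). Adra1b, the alpha-1B adrenergic receptor through which noradrenaline strengthens the nightly drive on the pinealocyte, was at 8.42, 8.64, 8.16, 7.78 and 7.16 against 9.02 to 10.06 (median 9.60), a difference of -1.54. Gabra4, a subunit of GABA receptors, was at 6.22 to 7.04 against 7.68 to 10.11. H1f1, a linker histone, was at 10.22, 9.70, 9.96, 9.90 and 9.97 against 11.02 to 11.88 (difference -1.52, SE 0.13, adjusted p = 1.9e-07). The nuclear noncoding RNA Malat1 was at 10.12 to 11.33 against 11.68 to 12.58 (-1.29). Tmem230, a membrane protein of vesicle traffic, varied little, at 9.36, 9.37, 9.35, 9.16 and 9.33 against 10.35 to 10.71 (median 10.60), a difference of -1.27 (SE 0.06, adjusted p = 4.1e-10). Matn2 (-1.34), Tmem215 (-1.44), the ATP synthase subunit gene Atp5mpl (-1.28), the vault RNA gene Vaultrc5 (-1.66) and Rnu3a, a copy of the U3 RNA that guides ribosomal RNA processing (-1.24), completed the list. With the array set as a random block, 21 of these 24 genes were called, and Col10a1 (adjusted p = 0.056 by limma), Pcdhb6 (0.12) and DQ267102 (0.0502) were not.

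**Figure D1:**
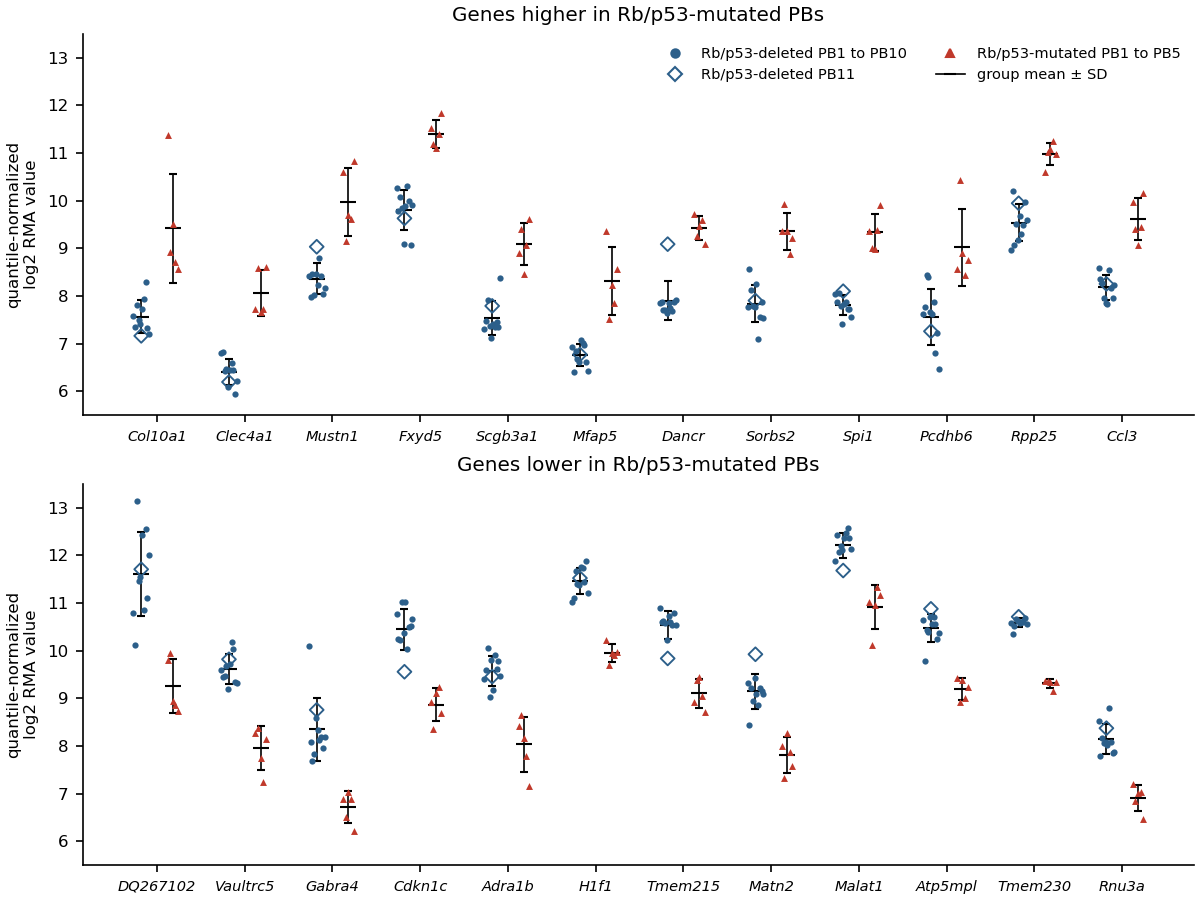
Quantile-normalized log2 RMA values (vertical axis) of the 12 leading genes upward and the 12 downward, 1 point per tumor, with group means and SDs (5 Rb/p53-mutated, 11 Rb/p53-deleted). The 24 genes were picked for groups that do not overlap, and Tmem230 has the tightest values, 9.16 to 9.37 against 10.35 to 10.71.

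How the calls fell depended on the level of the gene. Genes were divided by mean level into 10 bins of equal size. In the lowest bin, of 1994 genes at 2.52 to 5.71, 775 (38.9%) rose and 378 fell, while in each of the other 9 bins 15.8% to 22.9% rose and 25.5% to 28.7% fell. Genes for odorant receptors, which sensory neurons of the nose use and a pineal tumor has no known use for, lay mostly at such levels. Of 1027 olfactory receptor genes, 530 were higher and 101 lower, with a median difference of 0.24 at a median level of 5.58. Of 169 vomeronasal receptor genes, 88 were higher and 17 lower, with a median difference of 0.25. Olfr1184, the largest of them, was at 6.81, 7.33, 7.55, 7.26 and 8.16 against 4.30 to 5.47 and at 4.37 on average in cerebellum. On median-centred values 601 olfactory receptor genes were higher and 39 lower, so the direction did not turn with that scaling, while among those above the median level of all genes the median difference was 0.04. Low-lying genes called upward therefore stood beside a whole class of sensory receptor genes that moved the same way, and for both, array set and genotype cannot be told apart.

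**Figure D2:**
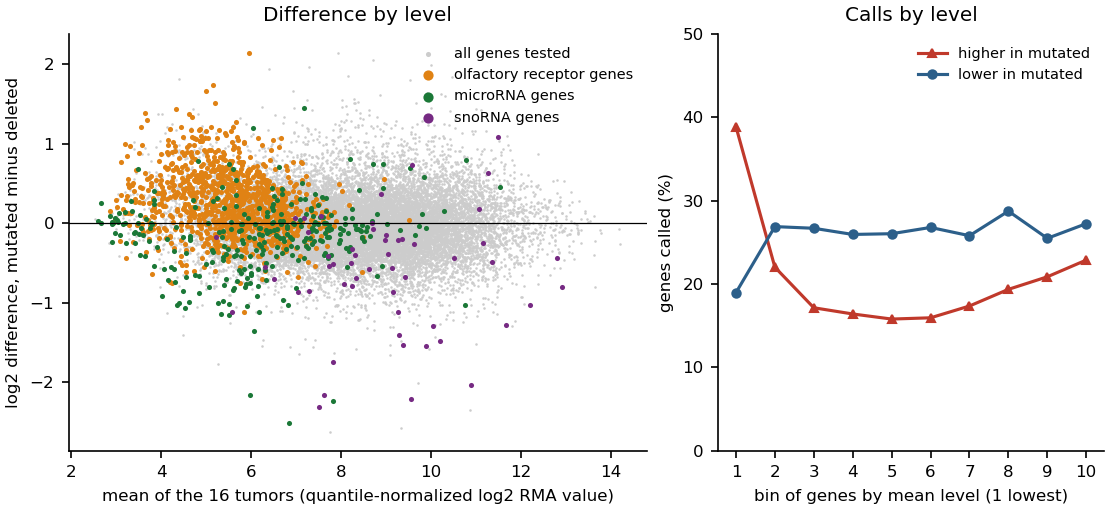
Left, the log2 difference (mutated minus deleted) of each of 19938 genes against its mean over the 16 tumors, with olfactory receptor, microRNA and snoRNA genes coloured. Right, the percentage of genes called higher and lower in each of 10 bins of genes by level, with 775 higher and 378 lower of 1994 in the lowest bin.

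Small RNA genes went the other way. Of 54 snoRNA genes, whose products guide chemical changes in ribosomal and spliceosomal RNA, 36 (66.7%) were lower and 3 higher, with a median difference of -0.52. With the array-set block 19 were lower and 2 higher. Of 297 microRNA genes, 105 (35.4%) were lower and 35 (11.8%) higher, with a median of -0.12, and with the array-set block 31 were lower and 11 higher. On median-centred values 82 microRNA genes were lower and 41 higher, and 35 and 4 snoRNA genes. Against PB11 alone the median difference was -0.015 for microRNA genes and -0.56 for snoRNA genes. Most snoRNAs are cut from introns of genes for ribosomal and other growth proteins, so each was set against the measured gene that contains it, here called its host. Hosts were taken by position, the smallest gene first and without regard to strand. A host therefore need not be the gene whose transcript the snoRNA is cut from. Of 19 snoRNA genes that were lower and lay inside a measured gene, 18 had a larger fall than their host. The host was lower in 10, not called in 8 and higher in 1, which was Mcmdc2 (0.41) around Snord87. The 19 were taken because they fell and their hosts were not, which favours this outcome. Over all 31 snoRNA genes inside a measured gene the median difference was -0.44, against -0.23 over their 27 hosts. Snora33 was at 5.96, 5.86, 6.09, 6.05 and 5.63 against 7.67 to 8.73 (median 8.19), a difference of -2.31, whereas its host, the ribosomal protein gene Rps12, differed by -0.73. Snord15a and Snord15b differed by -1.75 and -1.53 inside Rps3 (-0.46), and Snora3 by -1.29 inside Rpl27a (-0.19, adjusted p = 0.11 by limma). Snord82 went against the rest, at 12.16, 12.16, 12.26, 12.04 and 12.58 against 10.86 to 11.77 (difference 1.09), although Ncl, the nucleolin gene that contains it, was lower by 0.51. The arrays prime RNA along its length and do not separate a mature small RNA from the intron or primary transcript it is cut from.

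Among microRNA genes the largest differences downward were in 2 families that regulate the cell cycle, the miR-15/16 family and the miR-17-92 family. These families were picked after their values were seen. A microRNA silences messenger RNAs that pair with its seed, bases 2 to 8 from its 5′ end, so members with the same seed share most targets. The mature forms are shown because the genes below fall into 5 seed groups, with the seed in capitals (sequences from RefSeq, build GRCm38.p6, where 272 of the 297 microRNA genes had an entry).
miR-15b-5p: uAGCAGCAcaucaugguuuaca
miR-15a-5p: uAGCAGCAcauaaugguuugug
miR-16-5p: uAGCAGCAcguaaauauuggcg
miR-17-5p: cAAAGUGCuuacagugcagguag
miR-20a-5p: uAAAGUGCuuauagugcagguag
miR-20b-5p: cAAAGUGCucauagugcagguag
miR-18a-5p: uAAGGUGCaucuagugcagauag
miR-19a-3p: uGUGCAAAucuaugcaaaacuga
miR-19b-3p: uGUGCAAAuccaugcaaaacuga
miR-92a-3p: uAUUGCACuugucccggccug
miR-363-3p: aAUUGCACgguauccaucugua
The first 3 share a seed known for silencing cyclins D1 and E1 and Bcl2. The next 3 share a seed known for silencing E2f1 and Cdkn1a. miR-18a has a seed of its own, the miR-19 forms share another, and miR-92a and miR-363 share the last.

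Mir15b, on chromosome 3 in an intron of the condensin gene Smc4 (its miR-15b-5p at chr3:69009775-69009796, plus strand), was at 5.44, 4.70, 5.42, 4.88 and 5.06 against 6.66 to 8.50 (median 7.59). The difference was -2.51 (SE 0.22, adjusted p = 2.9e-07 by limma) and the groups lay far apart. Mir16-2, its neighbour in the same intron, was at 6.32 to 6.65 against 6.22 to 7.69 and was not called (-0.19, adjusted p = 0.39). Smc4 itself was at 9.90 to 10.46 against 10.65 to 11.57 (-0.96). The second copy of the pair, Mir15a (-1.03) and Mir16-1 (-0.82) on chromosome 14, was lower with no overlap, and so was the noncoding gene Dleu2 that contains it (-1.13), with overlap.

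The 5 microRNA genes measured from the miR-17-92 cluster, which lie within 1 kb of each other on chromosome 14, were all lower, by very different amounts. Mir18 was at 6.56, 6.17, 6.28, 6.04 and 6.39 against 7.79 to 8.99 (median 8.49), a difference of -2.24 (SE 0.15, adjusted p = 1.6e-08 by limma). Mir19a was at 4.90, 4.32, 4.47, 4.31 and 4.38 against 5.98 to 7.44 (median 6.60), a difference of -2.16. Both were without overlap, while Mir19b-1 (-0.92), Mir20a (-0.77) and Mir17 (-0.27) were lower with overlap. Mir17hg, annotated here at chr14:115044390-115046728 and so starting at the end of the last of the 5, was at 8.11, 7.80, 8.29, 7.91 and 8.58 against 7.38 to 8.11 (difference 0.33, adjusted p = 0.052) and was not called. Its measured stretch does not contain them. Of the X-linked copy of the cluster, Mir363 (-1.36) and Mir20b (-0.65) were lower with no overlap, Mir92-2 (-0.34) and Mir106a (-0.36) with overlap, and Mir19b-2 was at 5.56 to 5.95 against 5.44 to 6.08. In the third copy, inside the replication gene Mcm7 (-0.41), Mir106b was lower by 0.23, and Mir25 and Mir93 were not called. The small differences of Mir17, Mir106a and Mir106b did not all outlast the loss of 1 tumor. Mir17 was not called without PB2 (-0.20), Mir106b without PB1 (-0.21), PB2 (-0.19), PB3 (-0.22) or PB4 (-0.21), and Mir106a without any of the 5 (-0.34 to -0.39). On median-centred values 7 of the 13 measured members were lower and none higher, against 10 and none, and with the array-set block 4 were lower, Mir18 (adjusted p = 0.00023 by limma) among them.

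**Figure D3:**
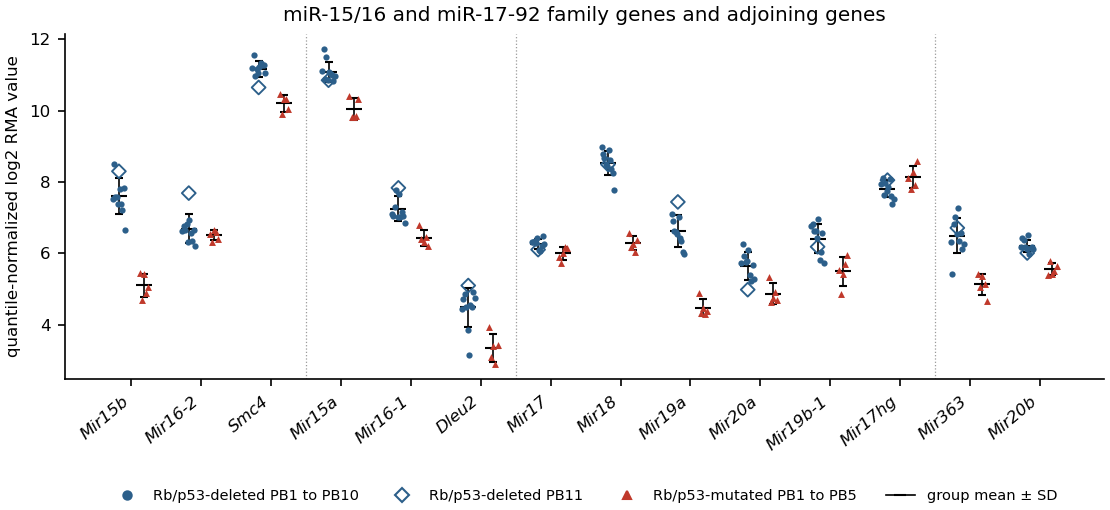
Quantile-normalized log2 RMA values (vertical axis) of miR-15/16 and miR-17-92 family genes and the adjoining genes Smc4, Dleu2 and Mir17hg, 1 point per tumor with group mean and SD. Dotted lines separate the clusters on chromosome 3, chromosome 14 (miR-15a), chromosome 14 (miR-17) and X, and Mir18 and Mir19a differ by -2.24 and -2.16 and Mir17hg by 0.33.

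Between the imprinted genes Dlk1 and Dio3 on chromosome 12 (109452485 to 110281097), an interval chosen after its values were seen, lie 40 measured microRNA genes. Of these, 18 (45.0%, against 35.4% of all microRNA genes) were lower and 1 (2.5%, Mir673) higher, and with the array-set block 6 and none were. In 10 (25.0%), among them Mir299a (-0.88), Mir412 (-0.98) and Mir381 (-1.07), the groups did not overlap. Lower without overlap were 8.36% of all genes, and 47 of the 300 genes classed as microRNA genes by symbol. The mean over the 40 genes was 5.55 to 6.01 in Rb/p53-mutated PBs and 5.77 to 6.94 in Rb/p53-deleted PBs, so that Rb/p53-deleted PB1 and PB2, at 5.85 and 5.77, lay among the mutated tumors. Meg3, the noncoding gene at the start of the same transcription unit, was not called (0.64, adjusted p = 0.24). In the opposite direction, Mir100hg, the host of miR-100, was at 10.23, 12.48, 11.89, 11.50 and 12.60 against 9.14 to 11.58 (difference 1.84, adjusted p = 0.0012). Mir100 followed it, at 6.11, 9.29, 8.27, 8.01 and 9.12 against 5.72 to 8.18 (1.44, adjusted p = 0.014), though it was not called without PB2 (1.16) or PB5 (1.20). In both genes PB1 was the lowest mutated tumor. The other microRNA genes measured inside Mir100hg, Mir125b-1 (-0.22, adjusted p = 0.42 by limma) and Mirlet7a-2 (0.24, adjusted p = 0.40), were not called. Lin28b, whose protein blocks maturation of let-7, was at 8.18 to 9.07 against 6.33 to 8.99 (1.18, adjusted p = 0.015), and Mycn was at 11.09, 12.00, 11.79, 11.60 and 12.26 against 10.50 to 11.45 (0.90, adjusted p = 0.00031). With the array-set block none of Mir100hg (adjusted p = 0.11 by limma), Mir100 (0.26), Lin28b (0.36) and Mycn (0.066) was called. Myc was not called without the block (-0.51, adjusted p = 0.14). Lin28a, unlike Lin28b, was lower with no overlap (-0.37, adjusted p = 6.8e-05 by limma) and was called with the block as well (0.031).

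Genes that act in p53 signaling were next described by role. Of 53 p53 target genes measured, 6 (11.3%) rose and 20 (37.7%) fell, against 20.7% and 25.9% of all genes, and with the array-set block none and 4 were. Perp, a desmosome protein that p53 switches on in apoptosis, was at 7.32, 7.74, 7.86, 8.03 and 7.42 against 7.11 to 10.21 (median 8.60). The deleted tumors spread widely and enclosed the mutated ones, and the difference was -1.01 (adjusted p = 0.029 by limma), which was not called without Rb/p53-mutated PB1 (-0.92) or PB5 (-0.95). Eda2r, a death receptor gene and direct p53 target, differed by -0.89 and Fbxw7, the ubiquitin ligase subunit that removes cyclin E and Myc, by -0.63 with no overlap. The apoptosome gene Apaf1 (-0.50), the exonuclease gene Aen (-0.54) and the BH3-only gene Pmaip1, or Noxa (-0.49), were lower as well. Trp53i11 was higher by 0.66 with no overlap, whereas Mdm2 (0.01), Ccng1 (-0.09), Zmat3 (0.08) and Bbc3 (0.13) were not called. The p53 relatives differed in direction, with Trp73 at -0.77 and Trp63 at 0.23. Of 23 regulators and relatives in all, 4 (17.4%) were higher and 6 (26.1%) lower, close to the 20.7% and 25.9% of all genes, and with the array-set block 2 and none were. Ppp1r13l, an inhibitor of p53, was at 8.85 to 9.06 against 8.08 to 8.44 (0.62, adjusted p = 8.5e-07).

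Genes reported to be induced by mutant p53 in human cells did not move together. Of 27 such genes 5 (18.5%) were higher and 7 (25.9%) lower, close to the 20.7% and 25.9% of all genes, with a median of -0.11. Ppargc1a, a coactivator of mitochondrial genes, was higher by 0.80, Cxcl1 by 0.66 with no overlap, and the methyltransferase gene Kmt2a by 0.37, while Id4 was lower by 0.79. Ppargc1a was not called without PB2 (0.60), PB3 (0.80) or PB5 (0.75), nor Kmt2a without PB2 (0.33). Of 21 genes of the mevalonate pathway, which makes cholesterol, 1 was higher and 4 lower, both below the 20.7% and 25.9% of all genes. With the array-set block none was higher and 1 lower. The lower genes were led by Sqle (-0.58) and Hmgcs1 (-0.50). Hmgcs1 was not called without PB2 (-0.37), PB3 (-0.51) or PB5 (-0.38). Of 31 proteasome subunit genes 2 (6.45%) were higher and 11 (35.5%) lower, against 20.7% and 25.9% of all genes, led by Psma7 (-0.67), and with the array-set block none and 5 were. On median-centred values the proteasome median moved from -0.16 to -0.05.

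Lists of dividing-cell genes were lower in Rb/p53-mutated PBs. Of 29 mitotic genes, 21 (72.4%) were lower and none higher, with a median of -0.40, against 25.9% of all genes lower. With the array set as a random block 5 of the 21 were called. The centromeric histone gene Cenpa was at 10.03, 9.93, 9.77, 9.75 and 9.97 against 10.51 to 11.15 (median 10.75), a difference of -0.93 with the groups apart. Prc1, which bundles microtubules between separating chromosomes, was at 9.99, 9.71, 9.95, 9.90 and 9.40 against 10.22 to 10.92 (median 10.62), a difference of -0.82. Mki67, the gene of the Ki67 antigen, was not called (-0.22). The mean over the 29 genes was 10.10 to 10.45 in Rb/p53-mutated PBs and 10.42 to 10.88 in Rb/p53-deleted PBs, with PB11 the lowest deleted tumor, and 6.99 in cerebellum. The tumors of both groups thus lay more than 3 log2 units above cerebellum, and the gap between the groups was small beside that.

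Promoters of mitotic genes are known to carry a CCAAT box, bound by NF-Y, and a CHR element, bound by the DREAM and B-Myb complexes. The promoters of the 2 lowest mitotic genes are shown because these genes had the largest falls of the list, from 250 bases before to 50 after the start site in RefSeq (build GRCm38.p6), with TTTGAA and CCAAT on either strand in capitals. The Cenpa promoter is chr5:30666636-30666935 and the Prc1 promoter chr7:80294201-80294500, both on the plus strand.
Cenpa: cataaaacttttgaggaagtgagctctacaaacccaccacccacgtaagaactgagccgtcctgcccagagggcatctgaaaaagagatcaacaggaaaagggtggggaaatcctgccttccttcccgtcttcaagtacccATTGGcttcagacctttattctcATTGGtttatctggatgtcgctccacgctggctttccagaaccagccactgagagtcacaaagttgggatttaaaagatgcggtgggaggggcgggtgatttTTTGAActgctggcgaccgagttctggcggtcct
Prc1: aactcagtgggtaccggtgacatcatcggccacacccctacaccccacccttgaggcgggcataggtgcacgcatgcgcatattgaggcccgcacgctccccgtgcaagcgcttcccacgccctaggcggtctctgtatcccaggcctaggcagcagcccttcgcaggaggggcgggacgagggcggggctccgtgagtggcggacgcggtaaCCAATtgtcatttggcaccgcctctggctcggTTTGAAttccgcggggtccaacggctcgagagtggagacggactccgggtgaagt
Both motifs occurred in 15 of 23 mitotic promoters with an entry (65.2%), against 6.12% of 15614 promoters of genes tested (the first entry of each gene), and against 4 of 33 promoters of E2F target and replication genes. The letters describe these windows and say nothing of what bound there.

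Replication and repair genes were lower in part. Of 39 E2F target and replication genes, 18 (46.2%) were lower and 5 (12.8%) higher, with a median of -0.22. With the array-set block 9 of the 18 and 1 of the 5 were called. Cyclin E2, Ccne2, was at 10.76, 10.23, 10.94, 10.75 and 10.34 against 11.34 to 11.77 (difference -0.95), the flap endonuclease gene Fen1 at no more than 8.73 against 9.04 to 10.01 (-0.93), and Gins1, of the replicative helicase, at 8.19 to 8.59 against 9.04 to 9.53 (-0.92). Gins2, whose product sits in the same helicase complex, went the opposite way with no overlap, at 10.82, 10.73, 10.94, 11.05 and 10.98 against 10.10 to 10.47 (0.61). E2f1 (0.07) and Pcna (-0.13) were not called. The mean over the list was 10.31 to 10.55 in Rb/p53-mutated PBs and 10.61 to 10.80 in Rb/p53-deleted PBs, without overlap.

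Among 28 genes of the BRCA1/BARD1 and homologous recombination network, 13 (46.4%) were lower and 3 (10.7%) higher. The partners of the BRCA1-BARD1 ubiquitin ligase went in opposite directions. Bard1 was at 9.39, 9.81, 9.72, 10.25 and 10.30 against 8.90 to 9.39 (median 9.14), a difference of 0.78 (SE 0.12, adjusted p = 8.1e-05 by limma), with PB1 just above the highest deleted tumor. Brca1 was at 9.56, 9.29, 9.83, 9.52 and 9.26 against 9.82 to 10.37 (median 10.11), a difference of -0.61 (SE 0.10, adjusted p = 8.6e-05), and PB3 was level with the lowest deleted tumor. Brip1, a helicase that binds BRCA1, was lower by 0.98 and Fancd2 by 0.60, whereas Fancf was higher by 0.93. On the deposited scale Bard1 differed by -0.08. With the array set as a random block Bard1 (adjusted p = 0.031 by limma) and Brca1 (0.031) were called too, which does not separate genotype from array set. In all, 1 of the 3 higher and 2 of the 13 lower genes of the list were called with it.

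Of the CDK inhibitors and G1 genes, Cdkn2d (-0.90) and Cdk2 (-0.44) were lower with no overlap beside Cdkn1c and Ccne2, and Ccnd3 was higher (0.58), but not without PB1 (0.48), PB2 (0.61) or PB3 (0.48) and not against PB11 alone (-0.17). In all, 7 of 18 (38.9%) were lower and 2 (11.1%) higher.

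Of 36 cytosolic ribosomal protein genes, 22 (61.1%) were lower and 1 higher, with a median of -0.37. Rps9 was at 10.68, 10.57, 10.89, 10.75 and 10.74 against 11.04 to 12.01 (median 11.79), and the mean over the list was 11.02 to 11.17 against 11.33 to 11.61, without overlap. With the array-set block 9 of the 22 were called, and on median-centred values 16 were lower and 8 higher, with a median of -0.25. Of 45 splicing and mRNA processing genes, 24 (53.3%) were lower and 5 higher, with a median of -0.25 that moved to -0.08 on median-centred values. Hnrnpf was at 10.90, 10.78, 10.98, 10.94 and 10.55 against 11.57 to 11.89 (difference -0.92), and the large subunit of the U2 auxiliary factor, U2af2 (0.36), went against the small subunit, U2af1 (-0.68). Among 53 genes of oxidative phosphorylation 24 (45.3%) fell and 10 (18.9%) rose, and with the array-set block 14 and 1 were. Ndufa4 was at 9.25 to 9.95 against at least 10.49 (-1.12) and Ndufa1 at 6.80 to 7.65 against 7.95 to 8.64 (-1.10), while Cox7b (0.47) and Atp5g1 (0.44) were higher with no overlap. Of 18 glycolysis genes 2 (11.1%) were higher and 4 (22.2%) lower, and on median-centred values 4 and none. Lysosome and autophagy genes had 7 of 40 (17.5%) higher and 8 lower, shares below those of all genes in both directions, from Gabarapl2 (-0.51) to the acid glucosidase Gaa, at no less than 10.27 against 9.16 to 9.91 (0.99).

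**Figure D4:**
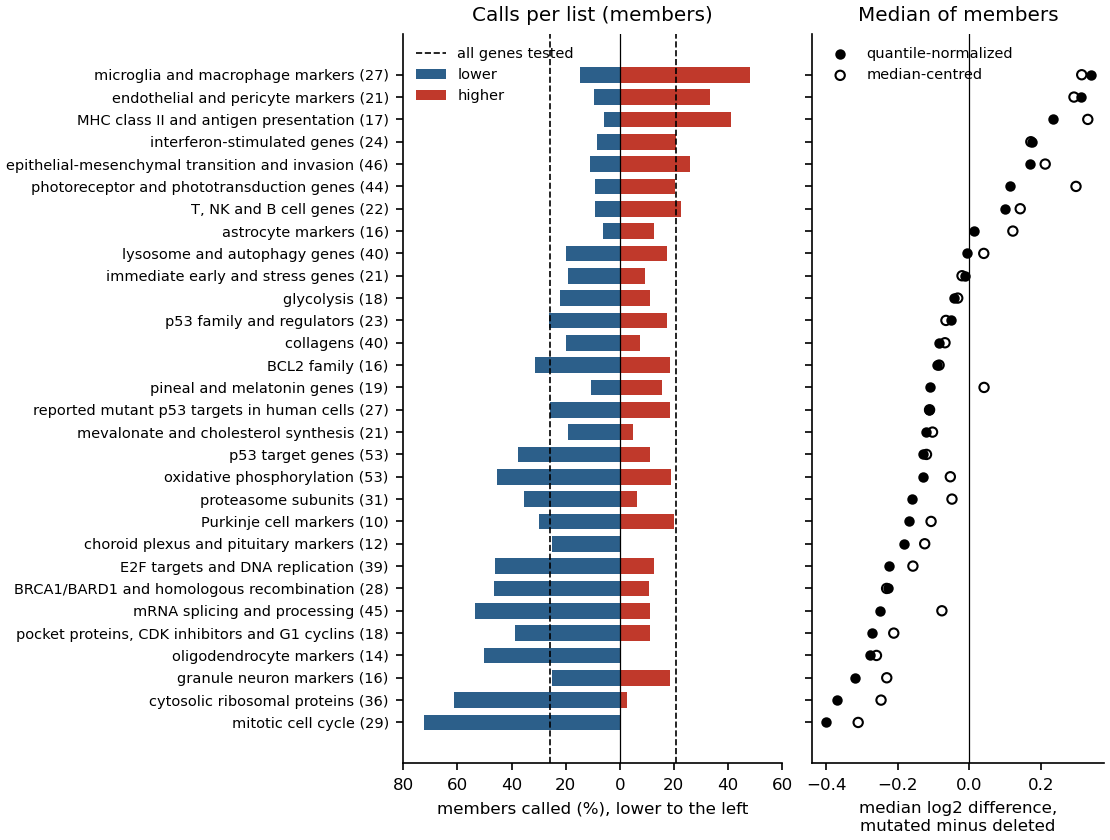
Left, the percentage of members of each list called lower (to the left) and higher (to the right) in Rb/p53-mutated PBs, with dashed lines at the 25.9% and 20.7% of all genes tested. Right, the median log2 difference of the members on quantile-normalized and median-centred values, from -0.40 for mitotic genes to 0.34 for microglia and macrophage markers, with the pineal and lysosome medians changing sign between the scales.

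Markers of other cells that the tumor piece could hold were counted next. Markers of microglia and macrophages, 27 in number, had 13 members (48.1%) that rose and 4 that fell, with a median of 0.34. The complement gene C1qb was at 11.71, 11.43, 11.57, 11.67 and 12.18 against at most 10.93 (median 10.67), a difference of 1.12, and Fcer1g, the shared chain of Fc receptors, was higher by 1.09, both with no overlap. Trem2 (0.71) and Laptm5 (0.76) behaved alike. Of the 13 higher genes 4 were called with the array-set block. Against them, Fcgr3 (-0.81), Mrc1 (-0.49), Cx3cr1 (-0.25) and Cd163 (-0.16) were lower, Cx3cr1 not without PB2 (-0.20) and Cd163 not without PB1 (-0.13) or PB4 (-0.15), and Csf1r, Itgam and Adgre1 were not called. Averaged over the 27 genes, mutated tumors were at 8.47 to 8.95, deleted tumors at 8.07 to 8.62 and cerebellum at 8.02. Of 17 MHC class II and antigen presentation genes, 7 (41.2%) were higher and 1 (5.88%) lower. Cd74, the invariant chain, was at 10.91, 10.77, 11.30, 11.75 and 11.91 against 8.66 to 10.82 (difference 1.62, adjusted p = 0.00029), with PB11 the highest deleted tumor, and none of the 7 was called with the array-set block. Of 24 interferon-stimulated genes 5 (20.8%) were higher, near the 20.7% of all genes, led by Cxcl10 (0.84) and Irf7 (0.79, but -0.02 against PB11 alone), and 2 lower. T, NK and B cell genes had 5 of 22 (22.7%) higher and 2 lower, with Cd3e at 0.45 and Gzma at -0.42. With the array-set block no gene of these last 2 lists was called. The part of these cells in the calls of other genes was not tested.

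Among 21 endothelial and pericyte markers, 7 (33.3%) were higher and 2 (9.52%) lower, with a median of 0.31. Rgs5, a pericyte gene, was at 10.32, 9.26, 10.23, 10.77 and 11.10 against 8.26 to 9.80 (1.14, adjusted p = 0.0044), and Tek, an endothelial receptor gene, was higher by 0.54, while Pecam1 differed by -0.01. None of the 7 was called with the array-set block. The list averaged 8.02 to 8.47 against 7.81 to 8.23, with PB11 the highest deleted tumor. Of 14 oligodendrocyte markers 7 were lower and none higher, with list means of 7.02 to 7.34 against 7.22 to 7.61 and 9.74 in cerebellum. Not one of these 7 was called with the array-set block, and on median-centred values 5 markers were lower and 1 higher.

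Genes of epithelial-mesenchymal transition and invasion were counted because dissemination of these tumors was under study. Of 46 such genes 12 (26.1%) were higher and 5 (10.9%) lower, against 20.7% and 25.9% of all genes. Their median difference was 0.17, and 0.05 against PB11 alone. With the array-set block 1 was higher and 1 lower. Mmp3, a matrix protease, was higher by 0.69 with no overlap, and so was Plaur, the urokinase receptor, by 0.40. Snai2 (0.62), Cdh11 (0.56), Cd44 (0.48) and Mmp14 (0.47) were higher with overlap. Zeb1, Zeb2, Twist1, Vim and Fn1 were not called. The N-cadherin gene Cdh2 was lower by 0.56 with no overlap, Cdh1 was higher by 0.27, and Tgfb2 was lower by 1.12. Several of these calls needed all 5 mutated tumors. Without PB1, Snai2 (0.50), Cdh11 (0.44), Cd44 (0.32) and Mmp14 (0.30) were not called. The same was found without PB4 for Snai2 (0.48), Cdh11 (0.52) and Tgfb2 (-0.99), without PB5 for Mmp14 (0.42) and Tgfb2 (-0.79), and without PB2 for Tgfb2 (-0.98). Of 40 collagen genes 3 were higher and 8 lower, both below the 20.7% and 25.9% of all genes. The groups did not overlap for only 1 higher gene, Col10a1, and 1 lower gene. These are smaller shares than the 7.28% and 8.36% of all genes.

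In the BCL2 family, Bcl2a1c was at 7.84, 7.57, 7.52, 7.60 and 8.18 against 5.39 to 6.27 (median 5.77), a difference of 1.94 (SE 0.14, adjusted p = 3.4e-08 by limma). Its level, below that set for the leading genes, kept it out of them. It belongs to a cluster of near-identical Bcl2a1 copies, so its probes may read several of them. Bak1 (0.64) and Bid (0.54), which promote death, were higher with no overlap, and Bad (-0.32), Bok (-0.43) and Bmf (-0.85) were lower. Of the 16 measured genes 3 (18.75%) were higher and 5 (31.25%) lower, against 20.7% and 25.9% of all genes.

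Of 19 pineal and melatonin genes, 3 (15.8%) were higher and 2 (10.5%) lower, both below the shares of all genes. Aanat (0.02), the penultimate enzyme of melatonin synthesis, Tph1 (-0.32) and Otx2 (-0.03) were not called, and Crx was higher by 0.24. Isl2, a LIM-homeodomain factor, was at 8.98, 9.07, 9.67, 9.15 and 8.77 against 9.76 to 10.59 (-0.96). Of 44 photoreceptor genes, 9 (20.5%) were higher and 4 (9.09%) lower, against 20.7% and 25.9% of all genes, and with the array-set block none and 1 were. Gnat2, the cone transducin, was at 10.48, 10.70, 10.64, 10.25 and 10.11 against 10.94 to 12.00 (median 11.54), a difference of -1.07 with no overlap. Gnat1, the rod transducin, went the other way and was at 7.68, 12.06, 9.69, 11.84 and 12.63 against 7.44 to 11.12 (median 8.68), a difference of 1.81 (SE 0.72, adjusted p = 0.048 by limma). Its mutated tumors were widely spread, with PB2, PB4 and PB5 above all deleted tumors and PB1 and PB3 among them. Rcvrn, a calcium sensor of photoreceptors, was at 6.39, 9.43, 7.17, 9.30 and 10.92 against 6.20 to 7.86 (1.97, adjusted p = 0.0049), and Cnga1, the rod channel, at 4.97, 8.25, 5.99, 7.67 and 9.37 against 5.13 to 7.15 (1.46, adjusted p = 0.031). The same 3 tumors were high in all 3 genes. Gnat1 was not called without PB2 (1.49), PB4 (1.54) or PB5 (1.34) of the mutated tumors or without PB11 of the deleted tumors (1.69), nor Cnga1 without PB2 (1.21), PB4 (1.35) or PB5 (0.93).

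Genes with the widest ranges among the 5 Rb/p53-mutated PBs, after Xist, included striated muscle genes such as Myl1 and rod genes such as Gnat1, which were highest in different tumors. Myl1, a myosin light chain of fast muscle, was at 13.00, 11.47, 11.95, 9.26 and 7.61 in PB1 to PB5, and at 7.59 to 12.33 in Rb/p53-deleted PBs. Des, Acta1 and Mb, for desmin, skeletal actin and myoglobin, were at 11.23, 11.49 and 11.04 in PB1 and at 7.61, 7.83 and 7.30 in PB5. The mean over 30 striated muscle genes, a list written after these values were seen, was 9.60, 7.93, 8.41, 7.37 and 7.20 in PB1 to PB5. It was 7.34 to 8.96 in Rb/p53-deleted PBs, highest in PB5 and lowest in PB1, and 7.31 in cerebellum. The mean over 44 photoreceptor genes was 8.69, 9.72, 8.95, 9.35 and 9.93 in the mutated tumors, so that PB1 was highest in muscle and lowest in photoreceptor genes and PB5 the reverse. In Rb/p53-deleted PBs the photoreceptor mean ran from 8.78 in PB11 to 9.67 in PB9. Of the 30 muscle genes, 2 (6.67%) were called higher and 1 (3.33%) lower between the groups, both below the shares of all genes. Col10a1 and Mfap5 were highest in the same PB1.

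**Figure D5:**
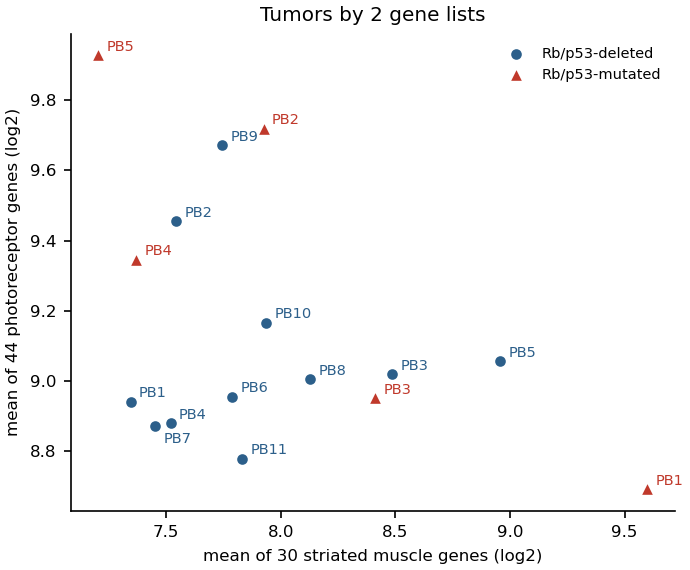
Mean log2 value of 44 photoreceptor genes (vertical axis) against the mean of 30 striated muscle genes (horizontal axis) in each of the 16 tumors. Rb/p53-mutated PB1 lies at 9.60 for muscle and 8.69 for photoreceptor genes, and PB5 at 7.20 and 9.93.

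Whole chromosomes differed little between the groups. Over genes above the median level, the median difference of a chromosome, relative to that of all such genes, was -0.12 to 0.07, with chromosome 3 at the low and chromosome 5 at the high end. Single tumors departed further from the Rb/p53-deleted mean. Chromosome 12 stood at -0.39 in Rb/p53-mutated PB5 and at -0.36 in Rb/p53-deleted PB2, which also had chromosome 3 at 0.30. Chromosome 15 stood at -0.32 in Rb/p53-mutated PB2 and at -0.25 in Rb/p53-deleted PB4, and Myc, which lies on it, was lowest among the mutated tumors in PB2, at 8.95. Mycn lies on chromosome 12 and was highest in PB5, at 12.26.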

How the data were processed

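RNA from snap-frozen tumors was hybridised to 1-colour Affymetrix Mouse Gene 1.0 ST arrays, and the authors deposited log2 RMA values per transcript cluster, made with Affymetrix Expression Console per the labels. Samples were grouped by their labels, 5 PBs with mutated and 11 with deleted p53, with 3 cerebellum arrays for reference. The log scale was read from the range of the values. Samples on another array version, with 1 Rb/p53-deleted PB among them, were not used here. The 35556 clusters of 19 arrays were quantile-normalized together. Of 21789 clusters with 1 gene symbol, the cluster with the highest mean was kept for each of 19938 genes. Groups were compared with limma 3.58.1 in R 4.3.3 (two-sided, Benjamini-Hochberg adjustment, threshold 0.05), after the script had been tested on simulated data. The number of arrays limits the precision, the median SE of a difference being 0.09. The labels do not say that each array came from a separate mouse, so p-values measure the spread between these samples.

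Alternatives were median-centred values, within-array ranks, quantile normalization of the 16 tumors alone, deposited values, other limma settings, dim genes left out, all clusters, the array set or the shared tumor number as a block, PB11 left out or alone, and each array left out. Leading genes were the 12 with the largest difference in each direction among genes called on all 3 scales, with no overlap, outside large gene families as set by symbol and above the median level in the higher group. Other genes are the members of gene lists with the largest differences and members of known function. The members and lists were chosen with earlier results of these data known, and the striated muscle, microRNA family and Dlk1 to Dio3 sets after their values were seen. Trp53 was not analysed here, since no cluster with 1 symbol was given that name.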

Additional observations from a re-analysis of the deposited data

Results flagged for a closer look

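In 10 genes and 1 list mean named in the text, a single Rb/p53-mutated tumor stood apart, its gap to the nearest of the others divided by the range of all 5 being above 0.71. Of 199 such sets 11 were flagged, and chance alone flags about 1 in 20. PB2 stood apart in 4 genes. It was low for the interferon-induced chemokine Cxcl10, at 9.98 against 11.12 to 11.36 in the other 4 (ratio 0.826), and for the splicing factor U2af1, at 9.38 against 9.56 to 9.63 (0.717). It was high for Dlk1, an imprinted inhibitor of Notch signaling, at 12.30 against 10.48 to 10.98 (0.723), and for Pcdhb6, at 10.44 against 8.44 to 8.90 (0.771). PB1 was high for Mir19a, at 4.90 against 4.31 to 4.47 (0.721), and low for U2af2, at 11.20 against 11.39 to 11.46 (0.737). PB4 was high for Fbxw7, at 7.72 against 7.36 to 7.43 (0.806), and low for Tmem230, at 9.16 against 9.33 to 9.37 (0.826). PB5 was high for Mir106b, at 7.79 against 7.26 to 7.38 (0.766), and low for the mean of granule neuron markers, at 8.63 against 8.92 or more (0.78), and for 1 of these markers, Zic2, at 12.18 against 12.59 to 12.74 (0.736). The 11 Rb/p53-deleted tumors were too many for this rule.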

How the results depend on the processing

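Over all 19938 genes, 4120 were higher and 5154 lower. Counted anew under each setting, the calls were 147 and 18392 on the deposited values, 1888 and 2628 among genes above the median level (fewer genes tested), 233 and 146 for a difference beyond 0.5, 672 and 812 with PB11 as the only deleted tumor, and 1098 and 1018 with the array set as a random block (correlation 0.31). Differences of 1 or more, 215 and 145 at first, numbered 7 and 6655, 96 and 86, and 136 and 87 under the first 3 of these, and 377 genes were lower against PB11 alone. The causes of the other shifts were not tested. Leaving out each array in turn gave 3631 to 4402 higher, 4403 to 5479 lower, 179 to 280 higher by 1 or more and 95 to 191 lower by 1 or more, the 95 without Rb/p53-mutated PB5. Median-centred values gave 4464 and 3843, and ranks 3948 and 5078. Against PB11 alone the sign turned for Ccnd3 (-0.17), Cd44 (-0.037), Irf7 (-0.016), Mir106a (0.38) and Mir106b (0.037). The shared tumor numbers were taken as names of separate tumors. Deviations of tumors with the same number correlated at -0.21 to 0.26. Tumors with different numbers were not set beside these, so the values cannot decide whether the numbers pair the samples. With the number as a replicate block over PB1 to PB5 of both groups, 2909 genes were higher and 3672 lower, and 3268 and 4156 without it on the same arrays, a comparison added after the data were seen. Other scales for Trp53 were not run, as it was not analysed here.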

Other observations

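Immediate early genes, which cells switch on within minutes of a stimulus, were mixed. Of 21 such genes 2 rose and 4 fell in PBs with mutant p53. Egr1 was higher by 0.97 with no overlap between the groups and Ier2 lower by 0.92 with no overlap, and both were called with the array set as a random block as well. Of 16 granule neuron markers 3 (18.75%) were higher and 4 (25.0%) lower, close to the 20.7% and 25.9% of all genes, with Zic2 at 0.36 and Zic1 at -0.83. Among 10 Purkinje cell markers, 2 were higher and 3 lower. Foxp4, a forkhead factor also made outside Purkinje cells, averaged 11.15 in Rb/p53-mutated PBs, 9.90 in Rb/p53-deleted PBs and 9.30 in cerebellum, without overlap, whereas Calb1, the calcium buffer that marks Purkinje cells, averaged 6.90, 8.02 and 13.22. Of 16 astrocyte markers 2 (12.5%) were higher, Fabp7 (0.52) and Aldh1l1 (0.50), and 1 (6.25%) lower, Glul (-0.66). Of 12 choroid plexus and pituitary markers none was higher and 3 (25.0%) were lower, near the 25.9% of all genes. The lower ones were the chloride channel gene Clic6, by 1.24, and the pituitary hormone genes Lhb and Fshb, by 0.45 and 0.40. Of 4 red blood cell genes 1 was higher, Alas2 (0.31), and 1 lower, Epb42 (-0.34).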
